A study of Mus musculus with 32 samples.

Results

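Male Chat-Cre;RiboTag mice of 24 and 3 months were compared over the RNA that was bound to HA-tagged ribosomes of spinal cholinergic neurons. All 5 libraries labelled as 24-month-old males and all 3 labelled as 3-month-old males were used, 8 of the 32 libraries of the series. In these mice Cre recombinase, driven by the choline acetyltransferase gene Chat, turns on a hemagglutinin-tagged ribosomal protein L22, so that ribosomes of every Chat+ neuron of the cord are tagged, motor neurons among them, and are pulled down with their mRNA from whole spinal cord. Both ages carried the genotype labelled Chat Cre; Ribotag on a mixed genetic background, and the labels name no treatment. The labels do not say that each library is a separate mouse, but the study's methods count replicates as animals. The deposited values are read counts per gene, with 23288612 to 27359621 counts per library at 3 months and 16201050 to 26908617 at 24 months. Of 54232 Ensembl identifiers, 17481 were tested, those whose counts averaged 5 or more across the 31 libraries of the 7 replicated groups of the series. Levels below are normalized counts (TMM-scaled to the mean library of the 31), and changes are fitted log2 fold changes of 24 over 3 months, in log2 units ± SE, with edgeR's two-sided p adjusted over all genes tested. A gene with an adjusted p under 0.05 is called a differentially expressed gene (DEG).

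Spinal motor neurons are large cholinergic cells that send axons to muscle and live in contact with microglia, the resident macrophages of the cord, and with astrocytes. Most neurons show little major histocompatibility complex (MHC) class I, the cell surface complex that presents peptides from inside a cell. In a ribosome pulldown, RNA of other cells can remain as background, and because these are bulk samples, fewer cells of a type and less RNA per cell cannot be told apart.

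The defining markers of cholinergic motor neurons were present at a like level at both ages. Summed over Chat, Slc18a3, Slc5a7, Mnx1, Isl1 and Prph, normalized counts were 64643 to 78144 at 24 months and 66819 to 74131 at 3 months. Prph made up the largest part of these sums, with means of 37014 and 36019, so the sums say little of the rarer markers. Mnx1 and Isl1 had fitted changes of -0.20 ± 0.20 and -0.25 ± 0.17 log2 units (SE, adjusted p = 0.909 and 0.771). None of the 6 was a DEG and none had libraries that did not overlap between the ages. Chat itself had normalized counts of 683, 979, 1285, 1927 and 491 at 24 months and 1401, 605 and 1148 at 3 months. Markers of other cells did move with age. All 18 markers of microglia and macrophages were fitted higher at 24 months, 11 of them without overlap of the libraries, which 6.70% of all genes showed in the higher and 4.51% in the lower direction. Their sum was 1285 to 10817 at 24 months against 774 to 862 at 3 months. Replicate 1 of 24 months held the highest of these sums, and the other 4 libraries of that age lay between 1285 and 1996, still above every 3-month library. The same replicate had the highest sums of oligodendrocyte markers (59785 against 17876 to 23378 in the other 24-month libraries), of astrocyte markers (44295 against 21701 to 35834) and of skeletal muscle markers (1239 against 34.6 to 517). Astrocyte sums overlapped between the ages, but 9 of the 10 astrocyte markers were fitted higher and 5 were higher without overlap. Their median log2 fold change was 0.97, or 0.39 without 24-month replicate 1. Replicate 1 did not stand alone for blood cells. Neutrophil markers summed to 165 to 1012 at 24 months and 52.0 to 78.1 at 3 months, and erythroid markers to 1176 to 2621 and 449 to 829. The bone and matrix genes Col1a1 and Col1a2 were high in replicates 2 and 4 of 24 months, at 32.3, 568, 49.0, 543 and 51.7 for Col1a1 against 38.6, 23.5 and 33.9 at 3 months. Sums of the endothelial, meningeal fibroblast, osteoblast, chondrocyte and dorsal root ganglion lists were also above 3 months in all 5 old libraries, as 1682 to 3065 against 1033 to 1435 for meningeal fibroblasts. Osteoblast sums were barely apart, at 721 to 980 against 620 to 715. Of 9 dorsal root ganglion markers 4 were tested, 2 fitted higher and 2 lower, and of 7 chondrocyte markers 3 were tested. Mean sums were lower at 24 months, with overlap of the libraries, for osteoclast (1604 against 2127), B and plasma cell (1568 against 2465) and T cell markers (44.8 against 50.4). Of all 18 marker lists, the Schwann cell gene Pmp2 was the only marker at 0 in all 8 libraries. The part of these cells in the results that follow was not tested.

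**Figure D1:**
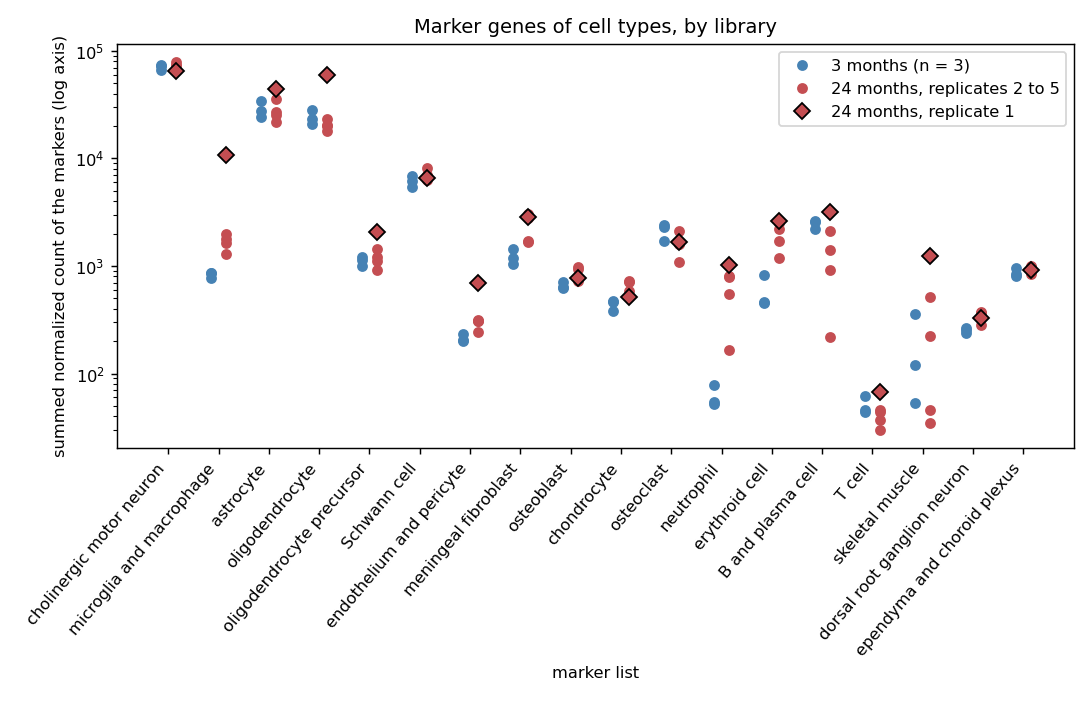
Summed normalized counts of each list of cell type markers (log axis) in each library, blue for the 3 libraries of 3 months and red for the 5 of 24 months, with the diamond marking 24-month replicate 1. Cholinergic markers sit at 64643 to 78144 and 66819 to 74131, while replicate 1 stands at 10817 for microglial markers and all 24-month libraries lie above 3 months for microglial, neutrophil and erythroid markers.

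At 24 months 34 genes were DEGs, 27 higher and 7 lower, that is 0.194% of genes tested, with 0.154% higher and 0.0400% lower. The DESeq2 Wald test called 155 genes (117 higher, 38 lower) and limma voom 1601 (899 higher, 702 lower), and with only the 2 ages in the edgeR fit 38 genes were called, of which 15 were among the 34. Libraries of the 2 ages did not overlap for any of the 34, as for 6.70% of all genes in the higher and 4.51% in the lower direction, the shares against which counts without overlap in each list are to be read. The median log2 fold change of all genes was -0.002. Among the 27 higher genes were Tap1, H2-K1, H2-Q6 and Nlrc5 of MHC class I presentation, the immune receptor and chemokine genes Tlr2, Tnfrsf1b and Ccl3, the lysosomal gene Gpnmb, the transcription factor genes Vax2, En1 and Atf3, the neuropeptide precursor Pdyn, the cell cycle inhibitor gene Cdkn2a and the cytochrome P450 gene Cyp1b1. Among the lower genes were the transcription factors Sox12 and Tshz3, the serotonin receptor gene Htr1b and the phosphatase regulator gene Ppp1r1c. Gpnmb, Flnc, Tap1, Pcdhb3 and Htr1b were DEGs in each of the 8 leave-one-out fits, which omit one library at a time, and Gpnmb was not called with only the 2 ages in the fit. The number of DEGs was 10, 7 and 5 without 3-month replicates 1, 2 and 3, 21 without 24-month replicate 4, and 26 to 31 without one of the other 24-month libraries. Of the 34, 9, 6 and 5 remained without 3-month replicates 1, 2 and 3, and 26, 25, 29, 20 and 28 without 24-month replicates 1 to 5 in turn. All 34 kept their direction in every alternative fit that tested them. The totals of the series fell into a lower and a higher range, and in the higher range, which held all 3 libraries of 3 months and 3 of the 5 of 24 months, no gene was a DEG.

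**Figure D2:**
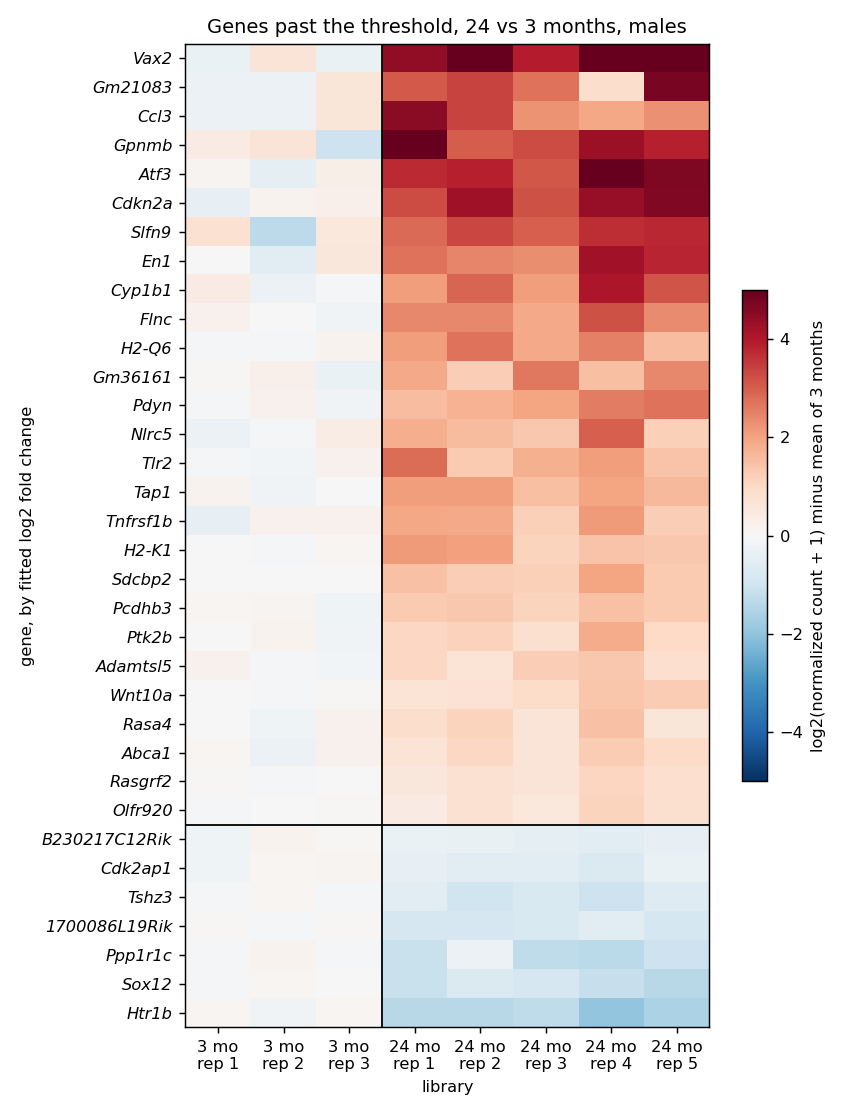
Each DEG (rows, ordered by fitted log2 fold change) in each of the 8 libraries (columns), as log2(normalized count + 1) minus the mean of the 3 libraries of 3 months, red for higher and blue for lower. The 27 genes above the line are higher and the 7 below it lower in all 5 libraries of 24 months than in any of 3 months.

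MHC class I heavy chain genes and a gene that supplies their peptides rose in old mice. Tap1, a subunit of the transporter that moves peptides into the endoplasmic reticulum (chromosome 17 from 34187553 to 34197225, GRCm38), had normalized counts of 102, 104, 68.8, 95.2 and 73.6 at 24 months and 26.8, 20.7 and 22.9 at 3 months. The ages did not overlap (1.91 ± 0.28 log2 units, adjusted p = 0.000993), and the fitted value was 1.85 without 24-month replicate 1. H2-K1, the heavy chain of a classical class I molecule (chromosome 17 from 33996017 to 34000347), stood at 1026, 973, 502, 628 and 600.1 against 229, 223 and 249, with the 3-month libraries close together and the 24-month ones spread (1.67 ± 0.35 log2 units, adjusted p = 0.0374). H2-Q6, a nonclassical heavy chain gene of the same region (chromosome 17 from 35424850 to 35430055), stood at 83.1, 130.2, 72.0, 111 and 56.7 against 17.3, 17.9 and 21.2 (2.26 ± 0.43 log2 units, adjusted p = 0.0159). H2-K1 passed in 2 and H2-Q6 in 5 of 8 leave-one-out fits. Its neighbours H2-Q7 and H2-Q4 missed the threshold at adjusted p values of 0.112 and 0.176, with log2 fold changes of 2.04 ± 0.52 and 1.87 ± 0.53 (SE) and no overlap of the libraries. The class I heavy chains are near copies of each other, so the assignment of reads among them is uncertain, and exons of Tap1 overlap those of Psmb9 on the opposite strand.

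Other class I genes did not pass. H2-D1, the other classical heavy chain gene, had 8234, 8902, 7505, 7028 and 8178 normalized counts at 24 months and 6514, 6956 and 7133 at 3 months, and the ages overlapped, with a fitted change of 0.21 ± 0.14 log2 units (SE, adjusted p = 0.736). B2m, which encodes the light chain of all class I molecules, was at 1081, 688, 460.4, 559.9 and 438 against 270.1, 285 and 302, apart in every library but not a DEG (1.17 ± 0.42 log2 units, adjusted p = 0.318). The immunoproteasome gene Psmb8 was at 92.4, 69.7, 51.4, 34.6 and 40.8 against 15.7, 21.7 and 14.4 (1.74 ± 0.51 log2 units, adjusted p = 0.194), and Tap2, the partner of Tap1, at 721 to 855 against 513 to 579.9 (0.50 ± 0.19 log2 units, adjusted p = 0.382). In the whole list of interferon response and antigen presentation, 44 of 46 genes were fitted higher, 2 were DEGs (Tap1 and H2-K1), 17 were higher without overlap and 0 lower, and the median log2 fold change was 0.70, or 0.59 without 24-month replicate 1. The class II genes Cd74 and H2-Ab1 overlapped between the ages, at 261, 125, 92.5, 40.8 and 25.9 against 18.1, 29.2 and 33.1 for Cd74. Ciita, which drives class II genes, had a fitted change of -0.08 ± 0.33 log2 units (SE, adjusted p = 0.992), whereas Nlrc5, which drives class I genes, was a DEG at 20.3, 17.1, 14.2, 47.0 and 12.9 against 3.94, 4.71 and 6.79 (2.08 ± 0.43 log2 units, adjusted p = 0.0343), highest in 24-month replicate 4. Exons of Nlrc5 overlap an antisense gene, 9330175E14Rik, and Nlrc5 passed in 4 of 8 leave-one-out fits.

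**Figure D3:**
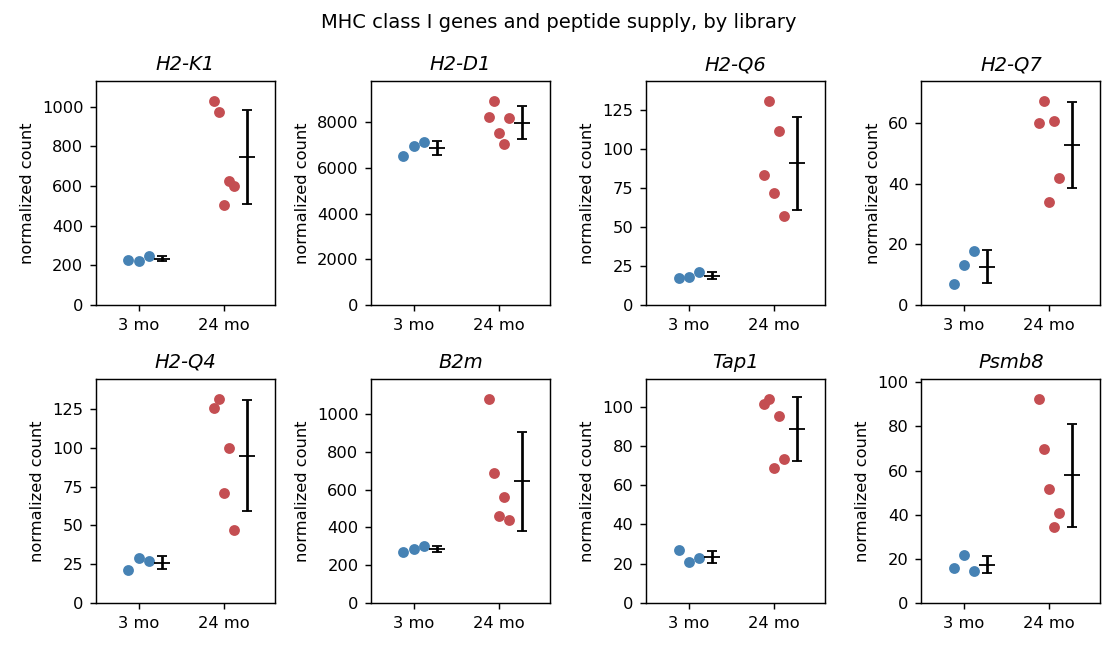
Normalized counts (linear axes from 0) of 5 class I heavy chain genes, B2m, Tap1 and Psmb8 in each library of 3 months (blue, n = 3) and 24 months (red, n = 5), with mean and SD beside them. H2-D1 overlaps between the ages and the other 7 genes do not.

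The promoters of these genes are shown because they hold known class I motifs both in H2-K1 and H2-Q6, which were DEGs, and in H2-D1, which was not; the difference in change between these genes was not tested. Each run is the 250 bases before the RefSeq gene start on GRCm38.p6, 5′ to 3′ on the strand of the gene, and capitals mark 4 motifs searched on both strands, namely GGGGATTCC (the core of an NF-kB site), TTTCACTTC (a match to an interferon-stimulated response element), TGACG (part of a cAMP response element) and TGATTGG (a Y box, an inverted CCAAT). For H2-K1 the first of 2 listed starts was taken.
H2-K1, chr17:34000348-34000597, minus strand: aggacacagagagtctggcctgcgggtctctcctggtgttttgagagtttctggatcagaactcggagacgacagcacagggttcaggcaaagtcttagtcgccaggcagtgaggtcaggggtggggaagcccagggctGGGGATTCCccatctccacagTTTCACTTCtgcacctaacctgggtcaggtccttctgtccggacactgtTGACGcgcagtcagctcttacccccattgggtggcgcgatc
H2-D1, chr17:35262844-35263093, plus strand: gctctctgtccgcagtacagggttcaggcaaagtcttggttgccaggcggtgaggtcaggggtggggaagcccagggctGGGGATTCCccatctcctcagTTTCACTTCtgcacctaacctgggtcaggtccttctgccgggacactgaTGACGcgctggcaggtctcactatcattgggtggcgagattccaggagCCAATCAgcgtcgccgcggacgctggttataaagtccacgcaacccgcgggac
H2-Q6, chr17:35424600-35424849, plus strand: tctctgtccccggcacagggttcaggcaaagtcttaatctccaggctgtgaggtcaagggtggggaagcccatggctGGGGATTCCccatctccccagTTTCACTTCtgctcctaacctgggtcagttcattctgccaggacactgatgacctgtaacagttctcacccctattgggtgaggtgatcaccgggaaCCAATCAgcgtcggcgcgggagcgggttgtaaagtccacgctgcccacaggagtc
Tap1, chr17:34187306-34187555, plus strand: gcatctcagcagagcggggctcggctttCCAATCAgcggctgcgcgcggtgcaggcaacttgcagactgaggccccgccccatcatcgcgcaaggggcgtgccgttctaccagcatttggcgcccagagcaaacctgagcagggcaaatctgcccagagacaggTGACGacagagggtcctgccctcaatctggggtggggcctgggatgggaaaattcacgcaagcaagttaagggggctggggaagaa

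H2-D1 held a match to each of the 4 motifs, H2-K1 to all but the Y box, H2-Q6 to all but TGACG, and Tap1 to TGACG and the Y box, and no match shared a base with another. Of 32851 promoters of the same length, 0.213% held GGGGATTCC, 0.402% TTTCACTTC, 17.8% TGACG and 7.23% TGATTGG on either strand. Promoters were listed for 28 of the 34 DEGs, and H2-K1 and H2-Q6 were the only ones among them with GGGGATTCC or TTTCACTTC. H2-Q7, which was not a DEG, held all 4 motifs as well. These matches describe the letters of the windows alone.

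Receptors and signals of innate immunity also rose. Tlr2, a receptor for bacterial lipoproteins, was at 105, 36.8, 52.2, 65.5 and 40.8 against 13.4, 13.2 and 17.0 (2.05 ± 0.41 log2 units, adjusted p = 0.0254), highest in 24-month replicate 1, and the log2 fold change was 1.74 without that library. Tnfrsf1b, a receptor for tumor necrosis factor, was at 51.7, 51.3, 30.9, 59.3 and 31.8 against 9.45, 15.1 and 15.3 (1.75 ± 0.33 log2 units, adjusted p = 0.0152). Ccl3, a chemokine, had 26.8, 11.8, 4.75, 3.71 and 4.98 normalized counts at 24 months and at most 1 count in any 3-month library, so that its mean was at least 2.01 log2 units higher than a floor of 3 counts per library (adjusted p = 0.0374), or at least 1.29 without 24-month replicate 1, where it was not called. Slfn9, of the interferon-regulated Schlafen family, was at 16.6, 23.7, 18.2, 30.9 and 32.8 against 3.15, 0 and 2.55 (3.55 ± 0.70 log2 units, adjusted p = 0.0206). Tlr2 and Ccl3 passed in 3 and Tnfrsf1b and Slfn9 in 5 of 8 leave-one-out fits. Most members of the lists around them were fitted higher, with 2 DEGs in each list. Among Toll-like receptor and TREM genes 28 of 32 were fitted higher with a median log2 fold change of 0.56, and 9 were higher without overlap. Among chemokines, cytokines and their receptors 32 of 38 were fitted higher with a median of 0.54, or 0.32 without 24-month replicate 1. Il34, a ligand of the microglial receptor Csf1r, was at 225, 272, 196, 294 and 345 against 133, 155 and 179.9 (0.77 ± 0.23 log2 units, adjusted p = 0.197).

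Complement, which tags synapses and debris for removal, held no DEG. C4b came closest, at 801, 316, 354, 368 and 243 against 100, 80.0 and 75.5 (2.29 ± 0.53 log2 units, adjusted p = 0.0628), with no overlap. C3 was at 298, 116, 148, 119 and 109 against 43.3, 40.5 and 51.8 (1.81 ± 0.55 log2 units, adjusted p = 0.214). The microglial gene C1qa stood at 1944, 216, 213, 153 and 242 against 49.6, 47.1 and 41.6, and its fitted change of 3.59 ± 1.15 log2 units (SE, adjusted p = 0.246) was 2.16 without 24-month replicate 1. Cd55, which limits complement on the surface of a cell, was at 1163, 1052, 1189.7, 913 and 895 against 1405, 1256 and 1388 (-0.37 ± 0.12 log2 units, adjusted p = 0.276). Over the list, 20 of 26 genes were fitted higher, and 9 were higher and 1 lower without overlap. The median was 0.53, or 0.45 without 24-month replicate 1 and 1.26 without 3-month replicate 3. Beside these immune lists, microglial markers summed to 774 to 862 at 3 months and 1285 to 10817 at 24 months, and their part in the lists was not tested. Tyrobp and Irf8, a signaling adaptor and a transcription factor of myeloid cells, stood at 18.5 to 274 and 27.2 to 108 at 24 months and at 5.65 to 7.09 and 9.45 to 15.3 at 3 months, and neither was a DEG (adjusted p = 0.232 and 0.206). The fitted change of Tyrobp was 3.57, or 2.14 without 24-month replicate 1.

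Genes of the lysosome and of lipid handling had the largest median of the 29 pathway lists, at 0.78. Without 24-month replicate 1 it was 0.50, below the 0.59 of the interferon list. Of 43 genes tested, 40 were fitted higher, 24 of them without overlap, and none was lower without overlap. Gpnmb, a membrane glycoprotein of lysosome-rich cells, was at 278, 43.4, 52.2, 106 and 79.6 against 6.30, 7.53 and 1.70 (4.41 ± 0.66 log2 units, adjusted p = 0.00105). It was highest in replicate 1, and without it the log2 fold change was 3.74. Abca1, which exports cholesterol from cells, was at 361, 471, 358, 545 and 439.9 against 240.2, 187 and 261 (0.92 ± 0.19 log2 units, adjusted p = 0.0254), highest in replicates 4 and 2. It passed in 3 of 8 leave-one-out fits. Cd63, a tetraspanin of late endosomes, was at 1405, 739, 650.2, 629 and 1105 against 345, 374 and 409.9 (1.27 ± 0.36 log2 units, adjusted p = 0.176) and the cathepsin gene Ctsd at 17728, 14321, 14430.0, 15344 and 17951 against 12132, 11510.0 and 13238 (0.38 ± 0.12 log2 units, adjusted p = 0.252). Lyz2 and Lpl, which encode lysozyme and lipoprotein lipase, had 24-month replicate 1 far above the others, at 1475, 313, 272, 127 and 223 for Lyz2 against 32.3, 36.7 and 38.2, and neither was a DEG (adjusted p = 0.176 and 0.195). Without that library their fitted changes went from 3.75 and 2.99 to 2.71 and 1.84. Plin2, which coats lipid droplets, overlapped between the ages with a fitted change of 0.14 ± 0.17 log2 units (SE, adjusted p = 0.948). Cholesterol synthesis held no DEG, with a median of 0.026 over 25 genes, and Lss, lanosterol synthase, was at 532, 681, 653, 784 and 569 against 494, 362 and 487 (0.52 ± 0.17 log2 units, adjusted p = 0.27).

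**Figure D4:**
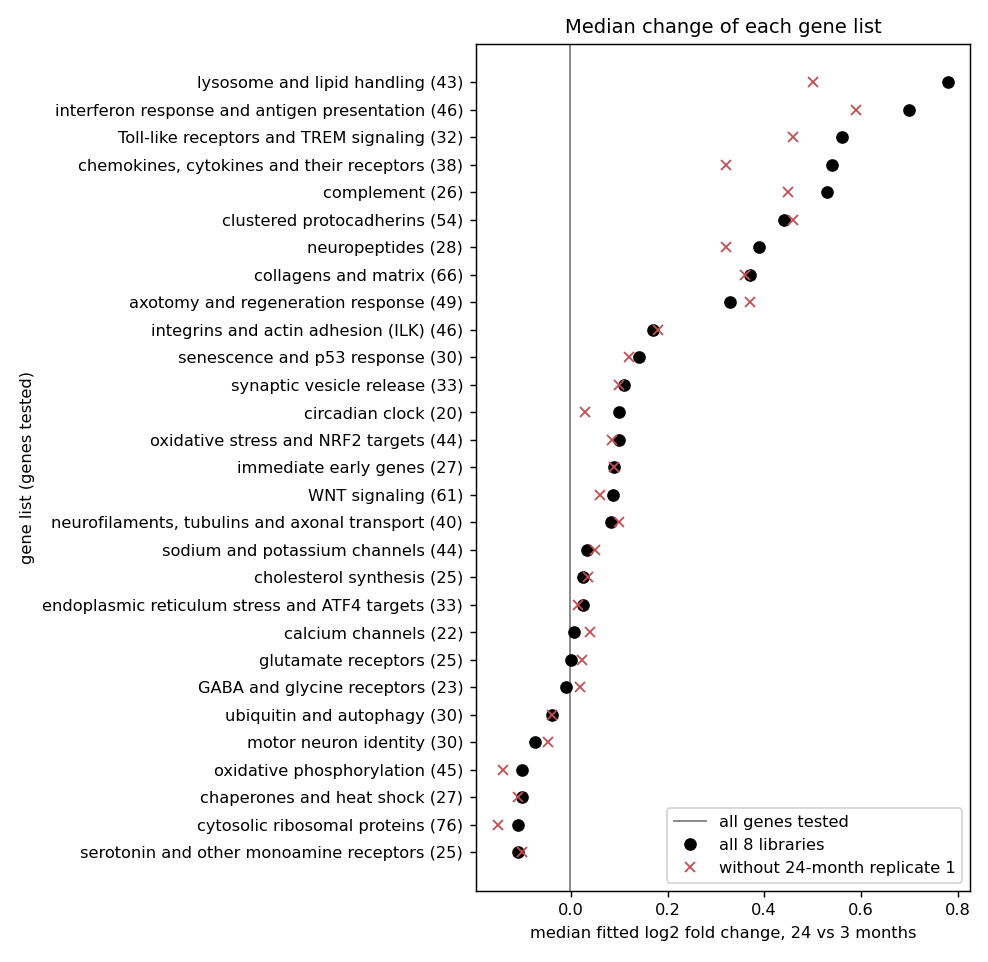
Median fitted log2 fold change of 24 over 3 months for each of the 29 pathway lists, with the number of genes tested in brackets, from all 8 libraries (black) and without 24-month replicate 1 (red crosses). The lysosome list is highest at 0.78 in all 8 libraries and the interferon list at 0.59 without replicate 1, and the receptor, channel and metabolic lists sit near the line of all genes.

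Developmental transcription factors moved in both directions. Vax2, a homeobox gene known from the ventral eye (chromosome 6 from 83711264 to 83738313), had 25.9, 40.8, 18.2, 84.0 and 53.7 normalized counts at 24 months and at most 1 count in a 3-month library, a mean at least 4.11 log2 units above a floor of 3 counts per library (adjusted p = 0.00544). En1, which marks V1 interneurons of the ventral cord (chromosome 1 from 120602418 to 120607992), was at 90.5, 75.0, 68.8, 252 and 191 against 12.6, 8.47 and 19.5 (3.30 ± 0.63 log2 units, adjusted p = 0.0174). Both were highest in replicates 4 and 5. Vax2 passed in 6 and En1 in 5 of 8 leave-one-out fits. A list of transcription factors of spinal interneuron classes, drawn up after the value of En1 was seen, gave 16 of 20 genes fitted higher. Its median was 0.12, or 0.40 without 3-month replicate 1, 0.11 without 24-month replicate 1 and 0.18 in the higher range of totals. The list includes En1 itself. In it Gata2 was at 55.4, 36.8, 19.0, 86.5 and 38.8 against 7.09, 10.4 and 12.7 (2.22 ± 0.58 log2 units, adjusted p = 0.125) and Tlx3 at 37.0, 18.4, 13.4, 40.8 and 45.8 against 4.72, 6.59 and 10.2 (2.10 ± 0.65 log2 units, adjusted p = 0.225). Both were above 3 months in every old library. Pax2, of inhibitory neurons, overlapped between the ages, with a fitted change of 0.06 ± 0.29 log2 units (SE, adjusted p = 0.993). Sox12, a SoxC factor of developing neurons, fell by 1.03 ± 0.19 on the log2 scale (SE, adjusted p = 0.0112), from 353, 402 and 362 at 3 months to 172, 226, 209, 166 and 141 at 24 months. Tshz3, a zinc finger factor, fell by 0.78 ± 0.16 (SE, adjusted p = 0.0319), from 232, 257 and 230.0 to 166, 118, 141, 117 and 154. Sox12 passed in 6 and Tshz3 in 2 of 8 leave-one-out fits.

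Neuropeptide genes were mostly fitted higher, 24 of 28, with a median of 0.39 and 7 higher without overlap. Pdyn, the precursor of the opioid dynorphins (chromosome 2 from 129686565 to 129699844), was at 189, 218, 258, 391 and 429.9 against 62.2, 76.3 and 57.7 (2.18 ± 0.38 log2 units, adjusted p = 0.00705). It was lowest of the old libraries in replicate 1, and it passed in 5 of 8 leave-one-out fits and under 10 of the 11 other alternatives. The other neuropeptides did not pass. Gal, galanin, was at 524, 456, 393, 655 and 1087 against 162, 218 and 201 (1.68 ± 0.66 log2 units, adjusted p = 0.404), and Vgf, a granin-like secretory protein, at 11994, 14660.0, 13629, 26232 and 31280.0 against 11437, 10309 and 10999 (0.84 ± 0.32 log2 units, adjusted p = 0.39). Ucn, urocortin, was at 348, 346, 271, 787 and 3421 against 142, 189 and 154, with 24-month replicate 5 far above the rest (2.68 ± 1.08 log2 units, adjusted p = 0.425). The same library was highest for Calca, which encodes CGRP, at 12465, 17657, 10708, 25599 and 66533 against 8915, 11963 and 10028 (1.37 ± 0.67 log2 units, adjusted p = 0.563), and for Nmb, neuromedin B, at 92.4, 118, 60.9, 167 and 416 against 33.1, 64.0 and 41.6 (1.89 ± 0.66 log2 units, adjusted p = 0.311). The ages did not overlap for Gal, Vgf and Ucn and overlapped for Calca and Nmb. Without replicate 5 the fitted changes of Ucn, Calca and Nmb were 1.43, 0.69 and 1.24. Replicates 4 and 5 of 24 months were the 2 highest for each of Pdyn, Gal, Vgf, Ucn, Calca and Nmb.

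In the response to axotomy, 42 of 49 genes were fitted higher, 13 of them without overlap, with a median of 0.33. Atf3 was the only DEG of the list at 369.5, 418, 242, 1117 and 707 (4.34 ± 0.92 log2 units, adjusted p = 0.0374), against 29.9, 19.8 and 33.9 at 3 months, and it passed in 2 of 8 leave-one-out fits. Sprr1a and Npy were at 334 to 1274 and 118 to 669 at 24 months against 20.7 to 31.4 and 12.2 to 20.4, without overlap. Their fitted changes of 4.83 ± 1.37 and 4.30 ± 1.23 log2 units (SE) missed the threshold, with adjusted p values of 0.176 and 0.176. Stat3, a transcription factor of cytokine signaling, was at 3834, 4278, 4370.4, 5757 and 4733 against 3789.6, 2971 and 3672 (0.40 ± 0.12 log2 units, adjusted p = 0.183), and its inhibitor Socs3 at 59.1, 101, 56.2, 129.8 and 90.6 against 20.5, 53.7 and 33.1 (1.29 ± 0.39 log2 units, adjusted p = 0.203). Tubb2b, a tubulin of growing axons, was at 1216, 1190.5, 977, 1523 and 1324 against 739, 729 and 806 (0.72 ± 0.25 log2 units, adjusted p = 0.312). For Stat3, Socs3 and Tubb2b every old library lay above the young ones. Jun, Gap43 and Sox11, which mark regenerating motor neurons, overlapped between the ages with log2 fold changes of -0.01, 0.27 and 0.31 and adjusted p values of 0.998, 0.901 and 0.917. Immediate early genes held no DEG among 27, with a median of 0.089, and Fos was at 414, 422, 458, 467 and 634 against 682, 429 and 484.

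Among genes of senescence and the p53 response, Cdkn2a was the only DEG of 30 (4.07 ± 0.81 log2 units, adjusted p = 0.0239), and it was lost in 3 of 8 leave-one-out fits. Cdkn1a, the p21 inhibitor, was at 127, 100, 58.5, 194 and 259.7 against 53.5, 37.7 and 42.4 (1.72 ± 0.68 log2 units, adjusted p = 0.407). Mdm2, a target of p53, overlapped between the ages with a fitted change of -0.14 ± 0.11 log2 units (SE, adjusted p = 0.81). The list had a median of 0.14. Of 44 genes of oxidative stress, Cyp1b1 was the only DEG (3.06 ± 0.60 log2 units, adjusted p = 0.0206), called in 4 of 8 leave-one-out fits. The NADPH oxidase subunits of phagocytes did not pass, with Cyba from 22.9 to 256 against 4.72 to 7.53 (3.68 ± 1.07 log2 units, adjusted p = 0.183, or 2.46 without 24-month replicate 1) and Ncf1 at 115, 43.4, 34.8, 26.0 and 53.7 against 13.4, 16.0 and 14.4 (1.90 ± 0.70 log2 units, adjusted p = 0.351). Nqo1, a target of NRF2, had a fitted change of -0.05 ± 0.20 log2 units (SE, adjusted p = 0.991), and Sod2, the mitochondrial superoxide dismutase, was at 3929.8, 3811, 3722, 3587 and 4077 against 4297, 4555 and 4098 (-0.17 ± 0.08 log2 units, adjusted p = 0.561).

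Genes of adhesion, the cytoskeleton and intracellular signaling were among the higher DEGs. Flnc, the actin cross-linker filamin C (chromosome 6 from 29433256 to 29461883), was at 101, 100, 70.4, 176 and 99.5 against 21.3, 17.9 and 16.1 (2.55 ± 0.38 log2 units, adjusted p = 0.000993). Filamin C is best known from striated muscle. In replicate order, skeletal muscle markers summed to 1239, 224, 517, 34.6 and 45.8 at 24 months and 52.8, 359.6 and 121 at 3 months. Whether muscle RNA had a part in the level of Flnc was not tested. In the list of integrins and actin adhesion Flnc was the only DEG of 46, with a median of 0.17. Lims1, which binds the integrin-linked kinase, was at 807, 841, 887, 808 and 931 against 1081, 964 and 1123 (-0.30 ± 0.08 log2 units, adjusted p = 0.131), and Ptk2, focal adhesion kinase, at 532, 497, 469.9, 463 and 491 against 388, 421 and 390.4 (0.30 ± 0.12 log2 units, adjusted p = 0.416). Ptk2b, the related calcium-activated kinase Pyk2, was a DEG at 221, 237, 185, 382 and 212 against 106, 119.6 and 95.1 (1.21 ± 0.26 log2 units, adjusted p = 0.0374). Rasgrf2, an activator of Ras in neurons, was at 1618, 1861, 1692, 2305 and 1950.5 against 1138, 1025 and 1115 (0.79 ± 0.14 log2 units, adjusted p = 0.012), and Rasa4, which turns Ras off, at 99.8, 117, 83.8, 149.6 and 81.6 against 54.3, 46.1 and 62.8 (0.96 ± 0.20 log2 units, adjusted p = 0.0374). Sdcbp2, the scaffold protein syntenin-2, was at 115, 100, 94.9, 166 and 104 against 42.5, 40.5 and 41.6 (1.48 ± 0.28 log2 units, adjusted p = 0.0152), with the 3 young libraries nearly equal. All 5 old libraries lay above the young ones for each of these genes but Lims1, where they lay below. Exons of Rasa4 overlap other annotated genes. Rasgrf2 and Sdcbp2 passed in 5 and Ptk2b and Rasa4 in 2 of 8 leave-one-out fits.

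Pcdhb3, a clustered protocadherin that acts in recognition between neurons, had the smallest adjusted p of all genes. Its normalized counts were 347, 355, 307, 388 and 347 at 24 months and 149, 154 and 119 at 3 months (1.31 ± 0.17 log2 units, adjusted p = 0.000393), and without 24-month replicate 1 the log2 fold change was 1.31. It was the only DEG among 54 clustered protocadherins, of which 41 were fitted higher, 12 without overlap, and 0 were lower without overlap, with a median of 0.44. In the higher range of totals the median was 0.23. Other genes of the beta cluster did not pass. Pcdhb8 was at 188, 180.2, 176, 145 and 108 against 89.0, 65.0 and 55.2 (1.19 ± 0.27 log2 units, adjusted p = 0.0624), Pcdhb10 at 127, 116, 114, 125 and 119 against 71.7, 82.8 and 74.7 (0.65 ± 0.15 log2 units, adjusted p = 0.063), and Pcdhb22 at 517, 558, 441, 430.1 and 445 against 354, 359.6 and 340.3 (0.44 ± 0.14 log2 units, adjusted p = 0.232). Members of the cluster are alike in sequence, so reads may be split among them.

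Of 61 genes of WNT signaling, Wnt10a, a secreted ligand, rose and Sox12 fell. Wnt10a was at 165, 167, 191, 264 and 246 against 104, 96.0 and 104 (1.03 ± 0.22 log2 units, adjusted p = 0.0429), and it passed in 2 of 8 leave-one-out fits. Secreted antagonists of the pathway did not pass, with Sfrp1 at 257, 339, 223, 292 and 246 against 434, 424 and 429 (-0.66 ± 0.17 log2 units, adjusted p = 0.104), Frzb at 336, 358, 370.2, 356 and 340.3 against 534, 480.1 and 464 (-0.48 ± 0.21 log2 units, adjusted p = 0.464) and Dkk2 at 14.8, 3.95, 11.1, 11.1 and 17.9 against 22.0, 31.1 and 27.2 (-1.15 ± 0.40 log2 units, adjusted p = 0.312). All 5 old libraries lay below the young ones for each of these antagonists. Wnt3 was at 130.3, 85.5, 83.1, 106 and 112 against 63.0, 74.4 and 67.0 (0.60 ± 0.21 log2 units, adjusted p = 0.307). Ctnnb1, beta-catenin, and Axin2, a target of the pathway, overlapped between the ages with log2 fold changes of -0.07 and 0.37 (adjusted p = 0.98 and 0.706). Over the 61 genes 5 were higher and 5 lower without overlap, near the 6.70% and 4.51% of all genes, and the median was 0.088.

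Collagen and matrix genes had a median of 0.37, with 55 of 66 fitted higher and 8 higher without overlap. Adamtsl5, a secreted ADAMTS-like protein of the matrix, was the only DEG at 535, 422, 605, 666 and 472 against 302, 243 and 239 (1.05 ± 0.18 log2 units, adjusted p = 0.00549), and passed in 6 of 8 leave-one-out fits. Lama5, a laminin chain, was at 30.5, 46.0, 38.0, 80.3 and 32.8 against 27.6, 22.6 and 17.8 (0.99 ± 0.35 log2 units, adjusted p = 0.32), and Fn1, fibronectin, at 87.8, 149, 108, 112 and 44.8 against 50.4, 20.7 and 36.5 (1.47 ± 0.65 log2 units, adjusted p = 0.496). The ages did not overlap for Lama5 and overlapped for Fn1. Col1a1, high in 24-month replicates 2 and 4, had a fitted change of 2.92 ± 1.41 log2 units (SE, adjusted p = 0.557).

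Receptors and channels that set the excitability of motor neurons held 1 DEG. Htr1b was the only DEG of 25 monoamine receptor genes and fell by 1.51 ± 0.21 on the log2 scale (SE, adjusted p = 0.000846), while Htr2a and Htr2c, which raise motor neuron excitability, had log2 fold changes of -0.14 and 0.07 (adjusted p = 0.958 and 0.984). Exons of Htr1b overlap an antisense gene, D430036J16Rik. No gene passed among 25 glutamate receptors (median -0.0003), 23 GABA and glycine receptors (median -0.0094), 44 sodium and potassium channels (median 0.034), 22 calcium channels (median 0.0072) or 33 genes of vesicle release (median 0.11). Gabrb1, a subunit of the GABA-A receptor, was at 877, 988, 924, 1057 and 1295 against 777, 699 and 739 (0.48 ± 0.15 log2 units, adjusted p = 0.247), without overlap of the ages. Sv2a and Bsn, of synaptic vesicles and of the active zone, were at 5053, 5484, 4839.5, 4302 and 4612 against 4164, 3469 and 3476 (0.39 ± 0.14 log2 units, adjusted p = 0.34) and at 1239, 1246, 1207, 1342 and 1746 against 1078, 1081 and 949 (0.39 ± 0.15 log2 units, adjusted p = 0.377).

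Of 30 genes of motor neuron identity 18 were fitted lower, 5 were lower and 2 higher without overlap (4.51% and 6.70% of all genes), and the median was -0.074. Ppp1r1c, which encodes an inhibitory subunit of protein phosphatase 1, was the only DEG of the list and fell by 0.98 ± 0.21 (SE, adjusted p = 0.0446), at 73.9, 133, 66.4, 64.3 and 78.6 against 157, 183 and 151. It passed in 1 of 8 leave-one-out fits. Chodl, of fast motor neurons, was at 11879, 11665, 11580.0, 6925 and 9578 against 14843, 14502 and 15311 (-0.53 ± 0.16 log2 units, adjusted p = 0.197). Spp1, osteopontin, was at 18884, 20661, 19358, 21627 and 40555 against 16597, 16490.0 and 16259 (0.56 ± 0.25 log2 units, adjusted p = 0.506), Isl2 at 1030.0 to 1194 against 1226 to 1374 (-0.22 ± 0.10 log2 units, adjusted p = 0.523) and Lhx4 at 1173 to 1339.8 against 1411 to 1464 (-0.21 ± 0.10 log2 units, adjusted p = 0.527). The axonal genes held no DEG among 40. There Vim and Nes, intermediate filament genes of glia and progenitors, were at 725, 476, 397, 601 and 479.7 against 173, 118 and 138 (1.90 ± 0.54 log2 units, adjusted p = 0.176) and 85.0, 92.1, 108, 106 and 124 against 59.1, 31.1 and 33.1 (1.32 ± 0.33 log2 units, adjusted p = 0.104), and Dync1h1, the heavy chain of dynein, at 16141 to 18808 against 10722 to 13995 (0.51 ± 0.15 log2 units, adjusted p = 0.193).

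Protein folding and energy genes held no DEG and had medians below 0. Of 27 chaperones 21 were fitted lower, with a median of -0.10 and 4 lower without overlap. Hspa1b, an inducible Hsp70, was at 139, 116, 161, 141 and 146 against 577, 185 and 236 (-1.24 ± 0.29 log2 units, adjusted p = 0.0629), with 3-month replicate 1 far above the other young libraries, and the fitted change was -0.58 without it. Hsph1, of the Hsp110 family, was at 8814, 7634, 8446, 6259 and 8956 against 12177, 10299 and 9992 (-0.43 ± 0.11 log2 units, adjusted p = 0.128). Of 76 ribosomal protein genes 68 were fitted lower with a median of -0.11, and of 45 genes of oxidative phosphorylation 35 with a median of -0.10. In the higher range of totals these 2 medians were -0.025 and -0.0038. Genes of ER stress (median 0.025), of ubiquitin and autophagy (median -0.039) and of the circadian clock (median 0.10) held no DEG. Nupr1, a stress-induced regulator, was at 91.5, 122, 91.8, 262 and 538 against 45.7, 56.5 and 58.6 (2.04 ± 0.72 log2 units, adjusted p = 0.314, or 1.40 without 24-month replicate 5), and the clock gene Per1 at 588, 612, 649, 712 and 684 against 498, 463 and 446 (0.47 ± 0.16 log2 units, adjusted p = 0.288).

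The remaining DEGs also belong to none of the lists. Cdk2ap1, a partner of the kinase CDK2, fell from 1545, 1887 and 1956 to 1342, 1194, 1230.0, 1083 and 1407 (-0.52 ± 0.09 log2 units, adjusted p = 0.00577) and passed in 6 of 8 leave-one-out fits. The transcripts 1700086L19Rik and B230217C12Rik, without a named product, fell by 0.78 ± 0.15 and 0.43 ± 0.09 on the log2 scale (SE, adjusted p = 0.0159 and 0.0374), called in 5 and 2 of these fits. Olfr920, annotated as an odorant receptor gene, was at 242, 312, 264, 391 and 312 against 172, 183 and 188 (0.75 ± 0.15 log2 units, adjusted p = 0.0206) and was called in 4. Gm36161 was at 19.4, 11.8, 33.2, 14.8 and 27.9 against 4.72, 5.65 and 3.39 (2.22 ± 0.49 log2 units, adjusted p = 0.0473) and was called in 1. Gm21083 had 9.24, 11.8, 7.12, 1.24 and 31.8 normalized counts at 24 months and at most 1 count in a 3-month library, a mean at least 2.25 log2 units above a floor of 3 counts per library (adjusted p = 0.0472), and was called in 2. Without 24-month replicate 5, where it was not called, the bound was 1.51. Its lowest old value, 1.24 in replicate 4, was close to the highest young one, 0.849. Exons of Gm36161 and Gm21083 overlap those of other genes on the opposite strand.

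The 12- and 18-month-old males (4 and 5 libraries) were set beside these ages. For all 27 higher and all 7 lower DEGs the mean levels at 12 and 18 months lay between those at 3 and 24 months, the 2 ages whose libraries had chosen the genes. The share of the change from 3 to 24 months present at 12 and 18 months was taken on linear mean normalized counts. Its median was 17.5% and 46.1% for the higher and 65.6% and 77.4% for the lower DEGs. Shares of the log2 change would differ, most for genes with large fold changes, and were not taken. In order of the ages 12, 18 and 24 months, Vax2 averaged 2.32 ± 1.58 (SD, n = 4), 7.31 ± 6.53 (SD, n = 5) and 44.5 ± 26.0 (SD, n = 5), and Flnc 20.6 ± 7.00 (SD, n = 4), 36.6 ± 7.31 (SD, n = 5) and 109 ± 39.2 (SD, n = 5). Pcdhb3 averaged 141 ± 19.1 (SD, n = 3), 245 ± 35.9 (SD, n = 4), 289 ± 62.7 (SD, n = 5) and 349 ± 28.9 (SD, n = 5) over the 4 ages from 3 to 24 months. Tested directly, 24 months held 1 DEG against 12 months, 0.00572% of genes tested, which was Flnc (log2 fold change 2.39, adjusted p = 0.00155), with 2126 genes at an unadjusted p under 0.05 and 153 called by the DESeq2 Wald test. Against 18 months edgeR called 0 genes, 0% of those tested, and the DESeq2 Wald test called 5. There 571 of the 17481 genes had an unadjusted p under 0.05 in edgeR, a smaller share than the 0.05 that no change would give. For 24 against 3 months 1551 genes had.

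**Figure D5:**
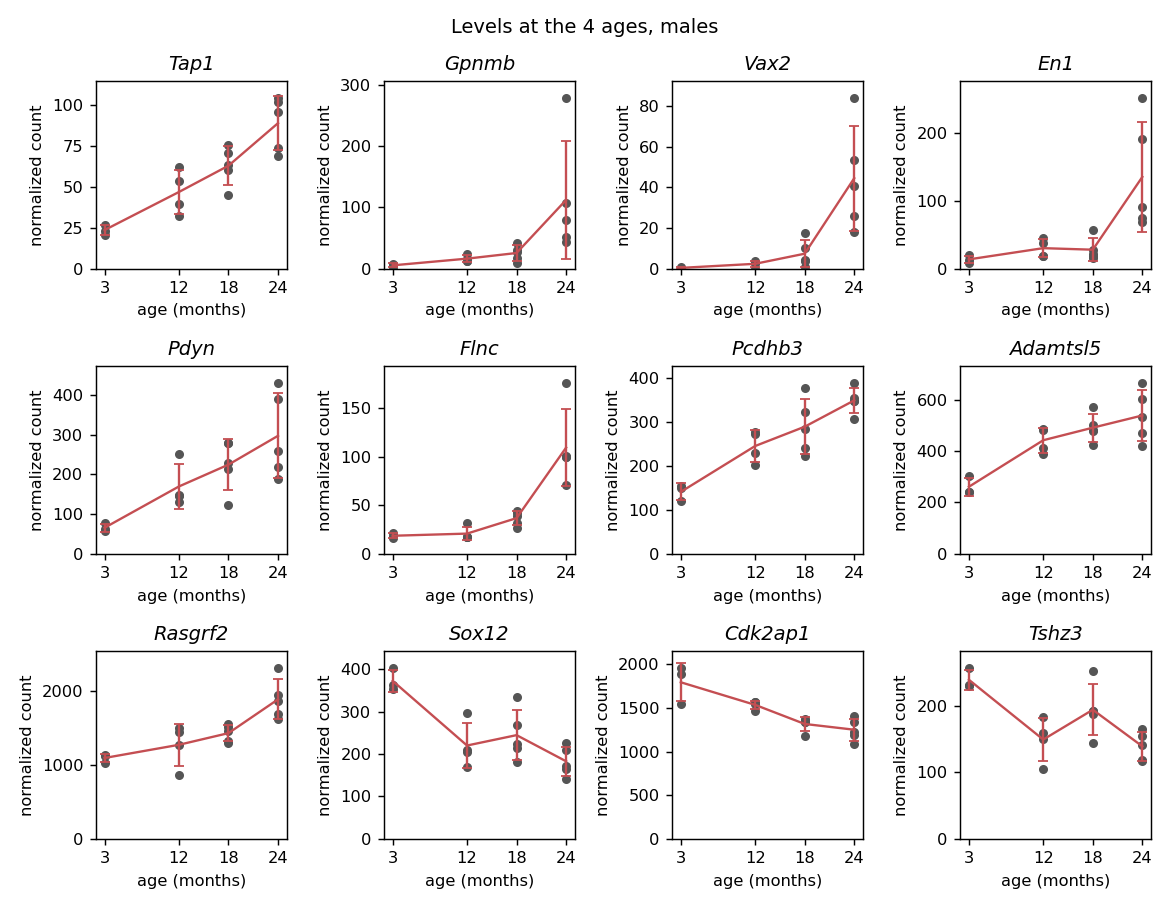
Normalized counts (linear axes from 0) of 12 DEGs in each male library at 3, 12, 18 and 24 months (n = 3, 4, 5 and 5), with mean and SD in red. On these linear axes the 18-month means of Vax2, En1, Gpnmb and Flnc lie nearer to 3 than to 24 months. By ratio some rise earlier: over 3, 12 and 18 months Gpnmb averaged 5.18, 16.1 and 25.3 and En1 13.5, 30.1 and 27.8. Pcdhb3, Adamtsl5, Tap1, Sox12 and Tshz3 have 12-month means well away from those at 3 months. Lines join the means.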

How the data were processed

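Ribosome-associated RNA of cholinergic neurons was immunoprecipitated from spinal cord with an anti-HA antibody and sequenced. The authors used ea-utils and Btrim to trim reads, HiSat2 for alignment and HTSeq for counting (annotation GRCm38.93 per the labels), and removed libraries judged to have failed by eye on pairs plots. The deposited values are whole counts per gene, not normalized, and whether strand was used in counting is not given in the sources used here.

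Counts were fitted with edgeR 4.0.16 (quasi-likelihood test, TMM scaling, R 4.3.3) over the 31 libraries of 7 age and sex groups, on the 17481 genes that averaged 5 counts or more, and p-values were adjusted by Benjamini-Hochberg. Ages that do not overlap have every library of one age above every library of the other. In simulated data for the 24 versus 3 months comparison, with 200 of 17481 genes changed, the fit recovered 72% of changes of 1 log2 unit and 98% of those of 2, and 5.56% of its calls were false. The changed genes were drawn from those with a mean count of at least 50, with the fit's own spread and no outlying libraries. Recovery of genes with fewer counts, such as Vax2 and Ccl3, and the effect of outlying libraries were not simulated. limma 3.58.1 (voom) and DESeq2 1.42.0 served as alternatives, beside other scalings, filters and samples.

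Genes named are the DEGs, members of each pathway list with the smallest unadjusted p at a mean count of at least 20, defining members of lists without DEGs, defining cell type markers, and genes the study names. The members and lists were chosen with earlier results of these data known. Some genes of the rule are not reported here. No pair of libraries within an age matched within sampling noise.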

Additional observations from a re-analysis of the deposited data

Results flagged for a closer look

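Dixon's test at the 95% level was run gene by gene on untransformed normalized counts. Its chance rate of about 1 in 20 holds for independent groups of normally distributed values, so it is no measure for these genes. In 20 of the 118 genes named, a single 24-month library stood apart from the other 4 by this test, always as the highest. In 10 of these the library was replicate 1, at 278 normalized counts for Gpnmb, 108 for Irf8, 801 for C4b, 298 for C3, 1944 for C1qa, 274 for Tyrobp, 576 for Csf1r, 1475 for Lyz2, 366 for Lpl and 256 for Cyba, and the same library had the highest sum of microglial markers. Replicate 5 stood apart for Ucn at 3421, Calca at 66533, Spp1 at 40555, Fos at 634, Bsn at 1746 and Mnx1 at 1984. Replicate 4 stood apart for Flnc at 176, Nlrc5 at 47 and Ptk2b at 382, and replicate 2 for Ppp1r1c at 133.

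One library of a 24-month-old female, which enters no comparison, was set beside the 4 libraries of 3-month-old females. In it 20 of the 27 genes that rose in males lay above every young female library, and 7 of the 7 that fell lay below every one. The share of all genes tested that lay above or below every young female library in this library was not counted. These counts therefore have no background to be read against. With 1 old library there was no test.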

How the results depend on the processing

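The number of DEGs was 155 with the DESeq2 Wald test (117 higher, 38 lower), 1601 with limma voom and sample quality weights (899 higher, 702 lower), 15 with the replicate number as a block (11 higher, 4 lower) and 0 in the higher range of library totals (0 higher, 0 lower), where fewer libraries were fitted. At a mean count of at least 50, 16 genes were higher. Of the calls 79.4% were higher in edgeR, 56.2% with voom and 64% at a mean count of at least 50. With only the 2 ages in the fit 38 genes were called, and 15 of the 34 remained. Leaving out one library at a time gave 5 to 31 DEGs, 4 to 26 higher and 1 to 6 lower. The DESeq2 Wald test called 5 genes against 18 months and 153 against 12 months. The cause of these differences was not tested.

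Same-numbered libraries of the 2 ages did not deviate together (correlations of -0.207, 0.0887 and 0.21 for numbers 1, 2 and 3), and 0 of 3 matched its own number best, so the block was not taken as a pairing. Of 2218 values of the 118 genes under these alternatives 1882 kept their direction and side of the threshold, 224 lost and 79 gained a call, and 33 uncalled values changed sign. No called value reversed. Of 911 medians of 48 lists 894 moved by less than the SD between the 5 libraries of 24 months and 17 by more. That SD includes replicate 1, so it is wider in lists where this library stands apart. Without replicate 1 the microglial median went from 2.30 to 1.27 and the oligodendrocyte one from 0.36 to -0.20. Totals of 16201050 to 27359621 counts per library limit what can be said of genes with few counts.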

Other observations

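In the single 24-month female library Tap1 was at 81.2 normalized counts against 26.7 to 41.2 in the 4 young female libraries, H2-K1 at 768 against 206 to 433, and H2-Q6 at 93.2 against 14.0 to 24.7. En1 was at 131 against 7.02 to 65.1, Vax2 at 28.6 against 0 to 10.6 and Pcdhb3 at 454 against 164 to 261. Flnc was at 82.7 against 22.4 to 35.3. Among the lower genes Sox12 was at 195 against 298 to 361 and Tshz3 at 140 against 194 to 251. Tnfrsf1b, Wnt10a, Rasa4, Rasgrf2, Olfr920, Atf3 and Cyp1b1 lay within the range of the young females. These are values of one library, with no test.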
